A study of Mus musculus with 22 samples.

Results

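The genes described here encode the AMPA-type glutamate receptor subunits Gria1, Gria2, Gria3 and Gria4, the NMDA-type subunits Grin1, Grin2a and Grin2b, and the metabotropic glutamate receptor Grm5. They were taken by name, 8 of the 13685 genes of a single-cell count table made from mouse hippocampus. All 8 were in the table. In the kept cells Gria2 had 78478 counts, Gria1 24455, Grm5 15553, Gria3 13907, Grin2b 8480, Grin1 6550, Gria4 3221 and Grin2a 166, so that Grin2a was measured far less precisely than the others.

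Drop-seq, which captures single cells in droplets with barcoded beads and reads the 3' ends of their RNA, was run on 22 animals with the strain label Fvb/B6. Of the old animals, 5 were WT (32 to 40 weeks), 4 rTg4510 (32 to 38 weeks), 3 P301L (41 to 48 weeks) and 3 rTta (33 weeks). The young animals were 4 WT (5 to 6 weeks) and 3 rTg4510 (4 to 5 weeks). The WT animals were littermates without either transgene, and rTg4510 animals express a human cDNA of P301L mutant tau from a tet operator that needs a transactivator driven by the Camk2a promoter, active in forebrain excitatory neurons. The names P301L and rTta point to animals with either the tau responder or the transactivator, though no label states this. The P301L animals were the oldest, so genotype and age cannot be told apart fully in comparisons with them.

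AMPA receptors are tetramers of Gria subunits that carry most of the fast excitatory current at synapses, and an edited Gria2 subunit keeps the channel nearly impermeable to calcium. NMDA receptors join the obligatory subunit Grin1 with Grin2 subunits, need both glutamate and depolarisation to open, and admit the calcium that starts synaptic plasticity; Grin2b prevails early in forebrain development and Grin2a rises later. Grm5 is a receptor coupled to Gq proteins that lies around the postsynaptic density and signals through phospholipase C.

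Total counts per animal ran from 780831 to 6039656. Cells were named from marker genes after clustering on other genes than these receptors, and 27198 barcodes with at least 300 counts were kept. Of these, 23241 could be named, and the unnamed ones entered no test. The classes tested were dentate granule-like neurons (3541 cells), CA pyramidal-like neurons (1024), an excitatory cluster led by Tshz2 and Meis2 (1588) that matched no single listed type, interneuron-like cells (1134), astrocyte-like cells (3198) and oligodendrocyte precursor-like cells (1529). The gene the transgene adds to was checked first. Mapt, which encodes tau, was higher in excitatory neurons of rTg4510 than of WT animals, with a log2 difference of 1.64 ± 0.15 (SE; edgeR adjusted p = 2.7e-08) at the old age and 1.59 ± 0.17 (edgeR adjusted p = 8.7e-07) at the young age. It was also higher in interneuron-like cells, at 1564, 1505, 1400 and 1703 CPM (counts scaled to a common total) in old rTg4510 against 676, 609, 636 and 562 in old WT animals, a log2 difference of 1.32 ± 0.25 (SE; edgeR adjusted p = 0.00858). The Mapt differences, not called, were 0.34 ± 0.22 (old) and 0.55 ± 0.25 (young) in astrocyte-like cells. In oligodendrocyte precursor-like cells they were 0.57 ± 0.29 and 0.49 ± 0.32, also not called. The part of RNA from other cells in these values was not tested. Old P301L replicate 3 and old rTta replicate 3 shared 184 cell barcodes, whereas no other pair of animals shared more than 6; of the 176 kept in both, 172 had the same class. The kept barcodes numbered 812 in this P301L and 1474 in this rTta animal. Of the 184, 172 had more counts in the P301L and 10 in the rTta animal. They stayed in both animals in the main results and were left out in an alternative. The table also consisted of parts. Of its genes, 12614 had counts in all 22 animals, 270 had no count in any P301L or rTta animal and 801 had none in any of the others. Grin2a was among the 270, so its zeros there were not compared; the other 7 genes had counts in every animal. Because the counts of P301L and rTta animals differ from the rest in this way, genotype and table part cannot be told apart in comparisons across them.

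Levels are given as CPM, the counts of a gene scaled to a common total of an animal's cells of 1 class, over the genes counted in all animals. In the class averages below, the 9 WT animals of both ages are described together, each class with at least 10 cells an animal. The order of classes is a description with no test. Fewer transcripts in a cell and fewer cells with transcripts cannot be told apart in such sums. Free RNA reaches all droplets, so the level in endothelial-like cells, which are not known for glutamate receptors, stands beside the others as a background. On the GRCm38 (mm10) assembly with GENCODE M21 annotation, Gria1 lies at chr11:57011387-57330244 and Gria2 at chr3:80681450-80802835, Gria3 at chrX:41400854-41678601, Gria4 at chr9:4417896-4796234, Grin1 at chr2:25291181-25319187, Grin2a at chr16:9567898-9995560, Grin2b at chr6:135713233-136173511 and Grm5 at chr7:87584168-88134907. No other annotated gene overlapped the 3' end of any of the 8; Grin1, Grin2b and Grm5 had genes on the opposite strand elsewhere in their span, and whether the counting used strand is not given in the sources used here.

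Gria1, the subunit that plasticity inserts into hippocampal synapses, was highest in CA pyramidal-like neurons at 1333 ± 328 CPM (SD, n = 9) and in dentate granule-like neurons at 1295 ± 277. These did not differ beyond their spread, since CA was higher in 4 of 9 animals. Interneuron-like cells followed at 959 ± 195 CPM, below dentate granule-like neurons in 8 of 9 animals. The Tshz2/Meis2 cluster was far lower at 282 ± 96.3 CPM, below interneuron-like cells in 9 of 9 animals and higher than microglia-like cells (249 ± 103) in only 5 of 9. Endothelial-like cells held 196 ± 96.3 CPM, oligodendrocyte precursor-like cells 159 ± 60.7, astrocyte-like cells 137 ± 62 and oligodendrocyte-like cells 81.7 ± 38.9. The endothelial level was above that of oligodendrocyte precursor-like cells in 4 of 9 animals and above that of astrocyte-like cells in 6 of 9. Gria1 in these glia was thus not set apart from the endothelial level. Within the CA class the cluster led by Fibcd1 and Spink8 held 1741 ± 371 CPM (n = 9) and that led by Pvrl3 and Nptx1 1088 ± 236 CPM (n = 3). Among interneurons, the cluster led by Pvalb was at 1392 ± 529 CPM (n = 3), Sst-like cells at 1114 ± 227 CPM (n = 5) and Vip-like cells at 409.6 ± 125 CPM (n = 3).

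**Figure D1:**
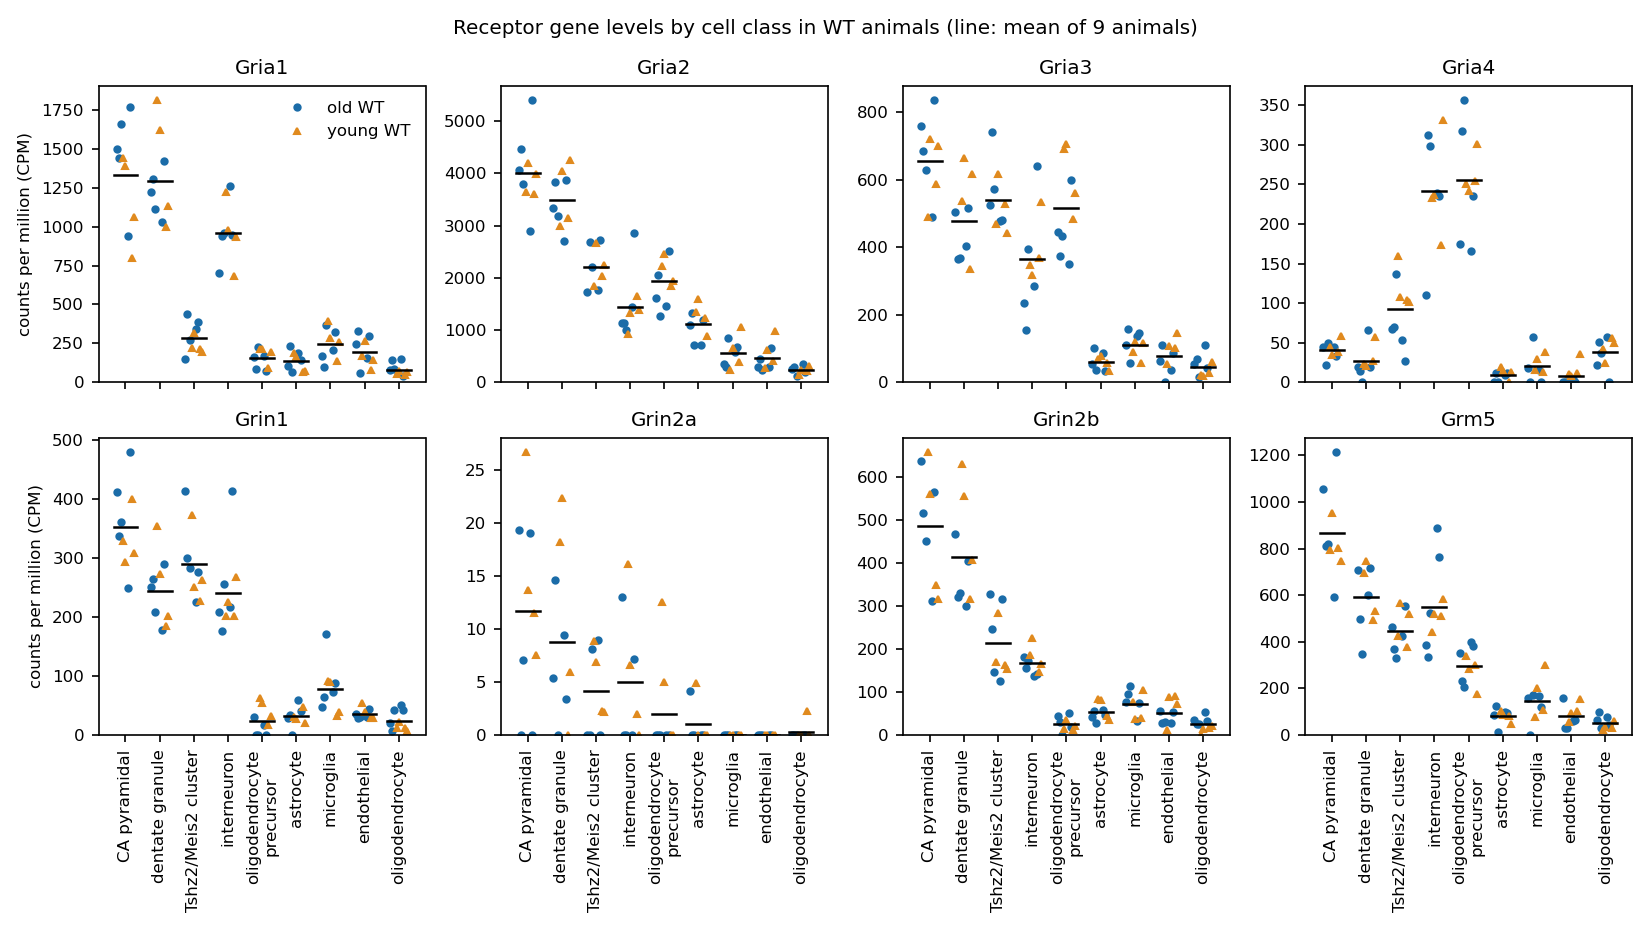
Levels of the 8 genes in 9 cell classes of the WT animals, in CPM on a linear axis from 0 that differs between genes. Circles are old and triangles young animals and lines are means over 9 animals; Gria1 is lower in the Tshz2/Meis2 cluster than in the other neuron classes, and Gria4 stands highest in interneurons and oligodendrocyte precursors.

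Gria2, the subunit that limits calcium entry, was highest in the same classes, at 4003 ± 688 CPM in CA pyramidal-like and 3487 ± 529.8 in dentate granule-like neurons, CA being higher in 8 of 9 animals. The Tshz2/Meis2 cluster kept 2207 ± 401 CPM, below dentate granule-like neurons in 9 of 9 animals. Oligodendrocyte precursor-like cells held 1930.2 ± 431 CPM, above interneuron-like cells (1432 ± 582) in 8 of 9 animals and above endothelial-like cells (468 ± 246) in 9 of 9. Astrocyte-like cells held 1121 ± 300.7 CPM, above endothelial-like cells in 8 of 9 animals and below interneuron-like cells in 6 of 9. Oligodendrocyte-like cells were lowest at 238 ± 76.0.

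Gria3 and Gria4 had other orders. Gria3 stood at 655 ± 118 CPM in CA pyramidal-like neurons, 539 ± 92.9 in the Tshz2/Meis2 cluster, 516 ± 131 in oligodendrocyte precursor-like cells and 479 ± 117 in dentate granule-like neurons. The last 3 were neighbours within their spread, with the first of each pair higher in 5 of 9 and 6 of 9 animals. Interneuron-like cells averaged 364 ± 148 CPM, a mean over clusters that differed: Sst-like cells held 664 ± 131 CPM (n = 5), the cluster led by Cnr1 and Cck 131 ± 36.0 CPM (n = 3) and Vip-like cells 56.1 ± 69.7 CPM (n = 3), the last from 7 counts. Gria4, which gives receptors fast kinetics, was highest in oligodendrocyte precursor-like cells at 256 ± 62.4 CPM and in interneuron-like cells at 241 ± 69.4, which did not differ beyond their spread. The Tshz2/Meis2 cluster held 92.2 ± 41.4 CPM, below interneurons in 9 of 9 animals, and CA pyramidal-like (41.2 ± 10.3) and dentate granule-like neurons (27.6 ± 20.7) were lower again. In endothelial-like cells it was at 7.87 ± 11.6, so the level in oligodendrocyte precursor-like cells was higher in 9 of 9 animals.

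The obligatory NMDA subunit Grin1 was spread over all 4 neuron classes. It stood at 352 ± 69.6 CPM in CA pyramidal-like neurons, 289.6 ± 64.1 in the Tshz2/Meis2 cluster, 244 ± 57.4 in dentate granule-like neurons and 240.4 ± 70.6 in interneuron-like cells, the last pair being in that order in 4 of 9 animals. Every other class was lower, from 76.9 ± 41.5 in microglia-like to 23.1 ± 16.8 in oligodendrocyte-like cells. Interneuron-like cells were above microglia-like cells in 9 of 9 animals. Oligodendrocyte precursor-like cells, where Gria2, Gria3 and Gria4 stood above the endothelial level in all 9 animals, held 23.4 ± 23.3 CPM of Grin1, and endothelial-like cells 34.9 ± 8.46.

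Grin2b, which binds glutamate and lengthens the NMDA current, was at 486 ± 134 CPM in CA pyramidal-like neurons and 415 ± 117 in dentate granule-like neurons. It was lower in the Tshz2/Meis2 cluster at 215 ± 79.5, below dentate granule-like neurons in 9 of 9 animals, and in interneuron-like cells at 168 ± 27.9; these lower classes did not differ beyond their spread. The CA cluster led by Fibcd1 and Spink8 held 699 ± 142 CPM (n = 9). Oligodendrocyte precursor-like cells held 24.4 ± 16.3 CPM and endothelial-like cells 50.4 ± 28.6. Grin2a, the subunit of mature synapses, reached only 11.7 ± 9.04 CPM in CA pyramidal-like neurons (27 counts over the 9 animals), 8.80 ± 8.005 in dentate granule-like neurons (37 counts), 4.98 ± 6.16 in interneuron-like cells (10 counts) and 4.13 ± 4.00 in the Tshz2/Meis2 cluster (10 counts). Microglia-like and endothelial-like cells had 0 counts. No order among the neuron classes could be read at this depth. The 3' capture of each gene may differ, so these counts do not show how much Grin2a the cells hold beside Grin2b.

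Grm5 was highest in CA pyramidal-like neurons at 865 ± 183 CPM, above dentate granule-like neurons (593 ± 134) in 8 of 9 animals. Interneuron-like cells held 549 ± 176 and the Tshz2/Meis2 cluster 447 ± 84.0 CPM, neighbours within their spread. Oligodendrocyte precursor-like cells held 295 ± 78.8 CPM, above endothelial-like cells (81.8 ± 48.3) in 9 of 9 animals, whereas astrocyte-like cells at 80.4 ± 33.4 were below the endothelial level in 5 of 9.

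The patterns were compared over 22 classes and clusters as Pearson correlations of mean log2(CPM + 10), a description whose points share animals and depth. Among the 8 genes, Grin1 and Grin2b were most alike at 0.94. Gria4 was least like the others, with 0.48 at most (Grm5) and -0.01 at least (Grin2a). Of all genes that reached 50 CPM in a class, the 3 most like each were found, and those reported here follow. For Gria1 they were Scn3b (0.90), Lrp11 (0.87) and Kif5c (0.87). For Gria2 they were Apba2 (0.91) and Map2 (0.90), for Gria3 Kcnd2 (0.89), Lmtk2 (0.89) and Mmp17 (0.88) and for Gria4 Dnm3 (0.86), Dusp26 (0.85) and Senp7 (0.84). For Grin1 Kif5c (0.97) is reported, for Grin2b Tenm2 (0.95) and Ppp3cb (0.94) and for Grm5 Scn8a (0.95), Tcf20 (0.94) and Stxbp5l (0.93). For Grin2a, over the 16 animals where it was counted, they were Chrd (0.88), Adra1d (0.88) and Spink8 (0.86).

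Interneuron-like cells had the lowest Gria2 share of AMPA counts among the neuron classes. Gria2 gave 66.4% ± 2.85 of the Gria1 to Gria4 counts in CA pyramidal-like neurons (SD, n = 9), 66.0% ± 4.50 in dentate granule-like neurons and 70.6% ± 2.99 in the Tshz2/Meis2 cluster, but 46.9% ± 8.70 in interneuron-like cells. Astrocyte-like cells had 84.4% ± 5.92. Gria1 gave 24.5% ± 4.01 in dentate granule-like neurons and 8.91% ± 2.28 in the Tshz2/Meis2 cluster, where Gria3 gave 17.4% ± 2.31. Gria4 gave 8.25% ± 2.66 in interneuron-like cells, 9.16% ± 2.87 in oligodendrocyte precursor-like cells and 0.710% ± 0.237 in CA pyramidal-like neurons. The 3' capture of each gene may differ, so these shares compare classes and do not give the stoichiometry of receptors.

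The main question of the design is whether tau transgenic animals differ from WT. In old rTg4510 against old WT animals, no receptor gene differed past an adjusted p of 0.05 in any class. Of 38 pairs of a gene and a class, 0 passed the threshold in edgeR and 0 in DESeq2, against 0.232% of all gene and class pairs tested in edgeR; 5 had an unadjusted p under 0.05 in edgeR, 13.2% of the pairs against 6.71% over all genes. A p that misses the threshold does not show that the groups were alike, and the intervals below give the sizes that these animals leave possible.

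In CA pyramidal-like neurons Gria1 was at 1499.8, 1662, 942 and 1766 CPM in the 4 old WT animals with at least 20 such cells, and at 979, 793 and 1117 in the 3 old rTg4510 animals. All WT animals but 1 were above the highest rTg4510 animal, and the groups overlapped. The log2 difference was -0.60 ± 0.25 (SE; 95% interval -1.10 to -0.10; edgeR adjusted p = 0.898). For Grin2b the WT animals held 637, 453, 312 and 566 CPM and the rTg4510 animals 420.4, 278 and 285, a log2 difference of -0.58 ± 0.29 (SE; 95% interval -1.15 to 0.00; edgeR adjusted p = 0.984). Here too the lowest WT animal lay within the rTg4510 range. All 7 tested receptor genes had a negative difference in this class, with a median of -0.36 against -0.01 over all genes, and the differences share cells and a common total. Summed over their marker lists, the CA cells held 896 to 1938 CPM of 10 astrocyte markers in WT and 1133 to 2063 in rTg4510 animals, and 761 to 2303 against 468 to 1087 CPM of 11 oligodendrocyte markers; their part in the differences was not tested.

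In dentate granule-like neurons the values were closer. Gria1 was at 1221, 1303, 1112, 1032 and 1421 CPM in old WT and at 1147, 1147, 1153 and 1096 in old rTg4510 animals, and its log2 difference was -0.09 ± 0.19 (SE; 95% interval -0.47 to 0.30; edgeR adjusted p = 0.938). Gria3 was at 506, 366, 368, 403 and 516 against 521, 635, 614 and 533 CPM. All rTg4510 animals were above all WT animals, by a narrow gap, and the log2 difference was 0.39 ± 0.22 (SE; 95% interval -0.04 to 0.83; edgeR adjusted p = 0.575). Gria4 rested on few counts, at 19.7, 14.6, 0, 65.7 and 20.0 CPM in WT and 151, 42.2, 57.4 and 19.9 in rTg4510 animals, which overlapped. Its log2 difference was 1.40 ± 0.61 (SE; 95% interval 0.14 to 2.66; edgeR adjusted p = 0.411). Grin1, Grin2b, Gria2 and Grm5 had differences between -0.23 and 0.26.

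In the Tshz2/Meis2 cluster Gria3 was at 526.3, 740.0, 572 and 476 CPM in WT and 473, 503, 363 and 255 in rTg4510 animals, with a log2 difference of -0.47 ± 0.23 (SE; 95% interval -0.92 to -0.01; edgeR adjusted p = 0.963). Again the groups overlapped. In interneuron-like cells the log2 differences ran from -0.27 (Grm5) to 0.46 (Grin2b), none called. In astrocyte-like cells Gria2 was at 1096, 1333, 721, 712 and 1184 CPM in WT and 724, 663, 431 and 751 in rTg4510 animals, with overlap and a log2 difference of -0.58 ± 0.25 (SE; 95% interval -1.08 to -0.08; edgeR adjusted p = 0.546). In oligodendrocyte precursor-like cells Gria1, not set apart from the endothelial level in WT animals, was at 160.4, 86.6, 229, 166 and 72.5 against 11.1, 33.6 and 179.7 CPM, from 1 to 22 counts an animal. No value there passed the test either.

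**Figure D2:**
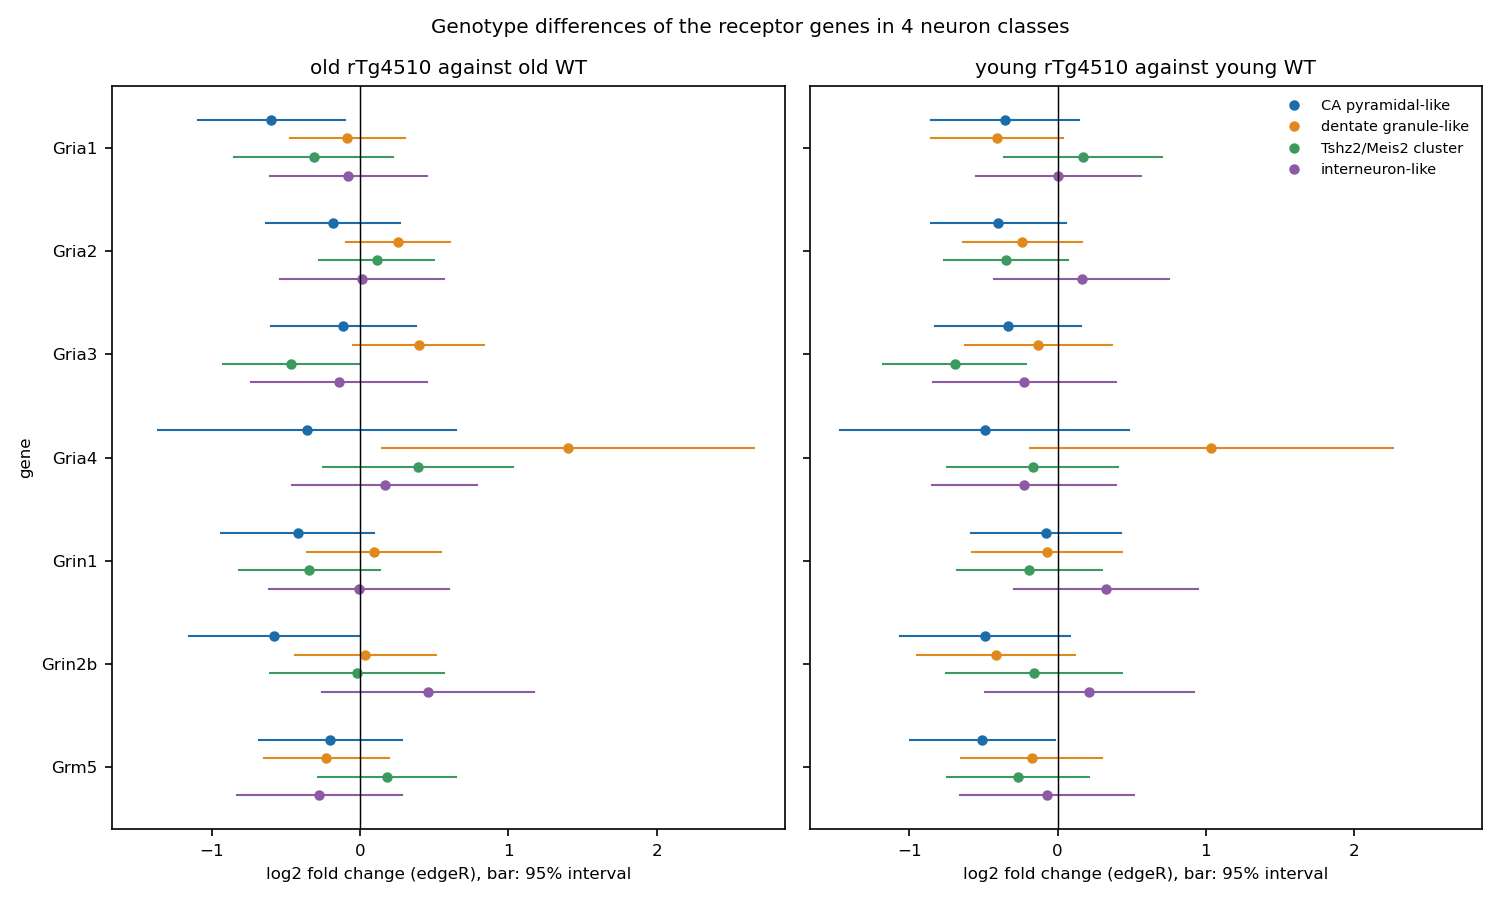
Log2 differences between rTg4510 and WT animals with their 95% intervals (edgeR), for 7 genes in 4 neuron classes, at the old age on the left and the young age on the right. In CA pyramidal-like neurons all 7 points lie below 0 at both ages, and no difference passed the adjusted threshold. At the young age all points but Gria4 in dentate granule-like neurons and all but Gria1 in the Tshz2/Meis2 cluster also lie below 0.

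No receptor gene passed in young rTg4510 against young WT animals either. Of 38 pairs of a gene and a class, 0 passed the threshold in edgeR and 0 in DESeq2, against 0.089% of all gene and class pairs tested in edgeR; 3 had an unadjusted p under 0.05 in edgeR, 7.89% of the pairs against 5.59% over all genes. All tested genes but Gria4 had a negative difference in dentate granule-like neurons, and all but Gria1 in the Tshz2/Meis2 cluster. Signs were mixed in interneuron-like cells. In CA pyramidal-like neurons all 7 genes again had a negative difference, with a median of -0.40 against -0.01 over all genes. Grm5 was at 792, 953, 802 and 747 CPM in young WT and 587, 710.3 and 439 in young rTg4510 animals, all of the latter below all WT animals, and its log2 difference was -0.51 ± 0.24 (SE; 95% interval -0.996 to -0.02; edgeR adjusted p = 0.75). Gria2 was at 3638, 4189, 3609 and 3982 against 3109, 3012 and 2575 CPM, also without overlap, with a log2 difference of -0.40 ± 0.23 (SE; 95% interval -0.85 to 0.06; edgeR adjusted p = 0.812). Gria1 overlapped, at 1441, 1392, 798 and 1060.3 against 831, 1085 and 819 CPM. The young CA cells held 314 to 1593 CPM of the oligodendrocyte markers in WT and 627 to 2802 in rTg4510 animals, and 891 to 1156 against 896 to 1901 CPM of the astrocyte markers; their part in these differences was not tested.

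Gria3 in the Tshz2/Meis2 cluster was at 469.7, 616, 528 and 442 CPM in young WT and 317, 348 and 302 in young rTg4510 animals. The groups did not overlap, and the log2 difference was -0.69 ± 0.24 (SE; 95% interval -1.18 to -0.21; edgeR adjusted p = 0.774). In old animals the same gene and cluster had -0.47 ± 0.23. Gria2 in astrocyte-like cells was at 1337, 1598, 1234 and 877 against 838, 642 and 584 CPM, again without overlap, with a log2 difference of -0.84 ± 0.29 (SE; 95% interval -1.42 to -0.26; edgeR adjusted p = 0.821).

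No receptor gene passed between the ages. Between old and young WT animals, of 38 pairs of a gene and a class, 0 passed the threshold in edgeR and 0 in DESeq2, against 0.00539% of all gene and class pairs tested in edgeR; 0 had an unadjusted p under 0.05 in edgeR, 0% of the pairs against 4.55% over all genes. Between old and young rTg4510 animals, of 38 pairs of a gene and a class, 0 passed the threshold in edgeR and 0 in DESeq2, against 0.00539% of all gene and class pairs tested in edgeR; 2 had an unadjusted p under 0.05 in edgeR, 5.26% of the pairs against 4.29% over all genes. In dentate granule-like neurons of WT animals, Grin2b was at 632, 557, 316 and 407 CPM at the young and 468, 322, 329.9, 300.2 and 406 at the old age, overlapping, with a log2 difference of -0.36 ± 0.23 (SE; 95% interval -0.82 to 0.10; edgeR adjusted p = 0.965). Whether the genotype difference itself differed between ages was tested as an interaction. There, of 38 pairs of a gene and a class, 0 passed the threshold in edgeR and 0 in DESeq2, against 0% of all gene and class pairs tested in edgeR; 1 had an unadjusted p under 0.05 in edgeR, 2.63% of the pairs against 4.14% over all genes, the 1 pair being Gria3 in oligodendrocyte precursor-like cells. In the 16 WT and rTg4510 animals Grin2a passed the low-count filter only with the 3 excitatory classes merged, where the old genotype difference was 0.27 ± 0.58 (SE; 95% interval -0.92 to 1.47; edgeR adjusted p = 0.969).

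Merging the 3 excitatory classes joined cells with very different Gria1 levels. In the merged cells Gria1 was at 1057, 1131, 1042, 789 and 1375 CPM in old WT, 662, 681, 646 and 906 in old rTg4510, 1194, 1268 and 1067 in old P301L and 982, 1333 and 1226 in old rTta animals. Every old rTg4510 animal was below every P301L and rTta animal, while WT and rTg4510 overlapped through 1 WT animal. The log2 differences of rTg4510 were -0.58 ± 0.21 (SE; 95% interval -1.01 to -0.15; edgeR adjusted p = 0.471) against WT, -0.69 ± 0.24 (SE; 95% interval -1.17 to -0.20; edgeR adjusted p = 0.153) against P301L and -0.68 ± 0.24 (SE; 95% interval -1.16 to -0.20; edgeR adjusted p = 0.27) against rTta, comparisons that share the rTg4510 animals. When only the 2 groups compared entered the fit, those against P301L (-0.69) and rTta (-0.68) had edgeR adjusted p = 0.0283 and 0.0327. In these fits of 2 groups 3.6% and 1.26% of all genes were called, against 1.14% and 0.486% with all groups in the fit, where Gria1 was not called. The mix of cells also varied between animals: the Tshz2/Meis2 cluster, low in Gria1, made up 36.0% ± 12.4 (range 17.8% to 44.5%) of the excitatory cells in old rTg4510 animals, 21.8% ± 10.8 (range 8.17% to 32.9%) in old WT, 16.4% ± 3.83 (range 12.0% to 18.8%) in P301L and 22.3% ± 6.37 (range 16.2% to 28.9%) in rTta animals. The ranges overlapped between rTg4510 and each other group, and the part of the mix in the Gria1 difference was not tested. Within dentate granule-like neurons alone the difference from WT was -0.09 ± 0.19 and within the Tshz2/Meis2 cluster -0.31 ± 0.27, while that in CA pyramidal-like neurons was -0.60 ± 0.25. Against rTta animals it was -0.40 ± 0.21 in dentate granule-like neurons, -0.79 ± 0.29 in CA pyramidal-like neurons and -0.38 ± 0.27 in the Tshz2/Meis2 cluster, and against P301L animals -0.30 ± 0.22 in dentate granule-like neurons, the 1 of these classes tested there. None of these passed the threshold. In young animals the merged difference was -0.53 ± 0.24 (SE; 95% interval -1.02 to -0.04; edgeR adjusted p = 0.516), with 38.0% ± 21.4 (range 16.3% to 59.0%) Tshz2/Meis2 cells in rTg4510 and 21.3% ± 11.5 (range 7.67% to 34.7%) in WT animals. At each age the label numbers of WT and rTg4510 animals fall into a lower and a higher block, each with both genotypes. No block holds both ages, and what the blocks stand for is not given in the sources used here. With the block as a separate term at each age, the merged Gria1 difference was -0.59 ± 0.19 (SE; edgeR adjusted p = 0.246) at the old and -0.36 ± 0.22 (SE; edgeR adjusted p = 0.673) at the young age. Within the lower old block WT animals held 1042 to 1131 and rTg4510 animals 662 to 681 CPM of Gria1, without overlap. Within the higher old block they held 789 and 1375 against 646 and 906 CPM, with overlap. In the merged cells of rTg4510 animals, Grin2b was at 347 to 423 CPM in the lower and 178 to 292 in the higher blocks. In WT animals it was at 315 to 551 and 253 to 439 CPM, with overlap.

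**Figure D3:**
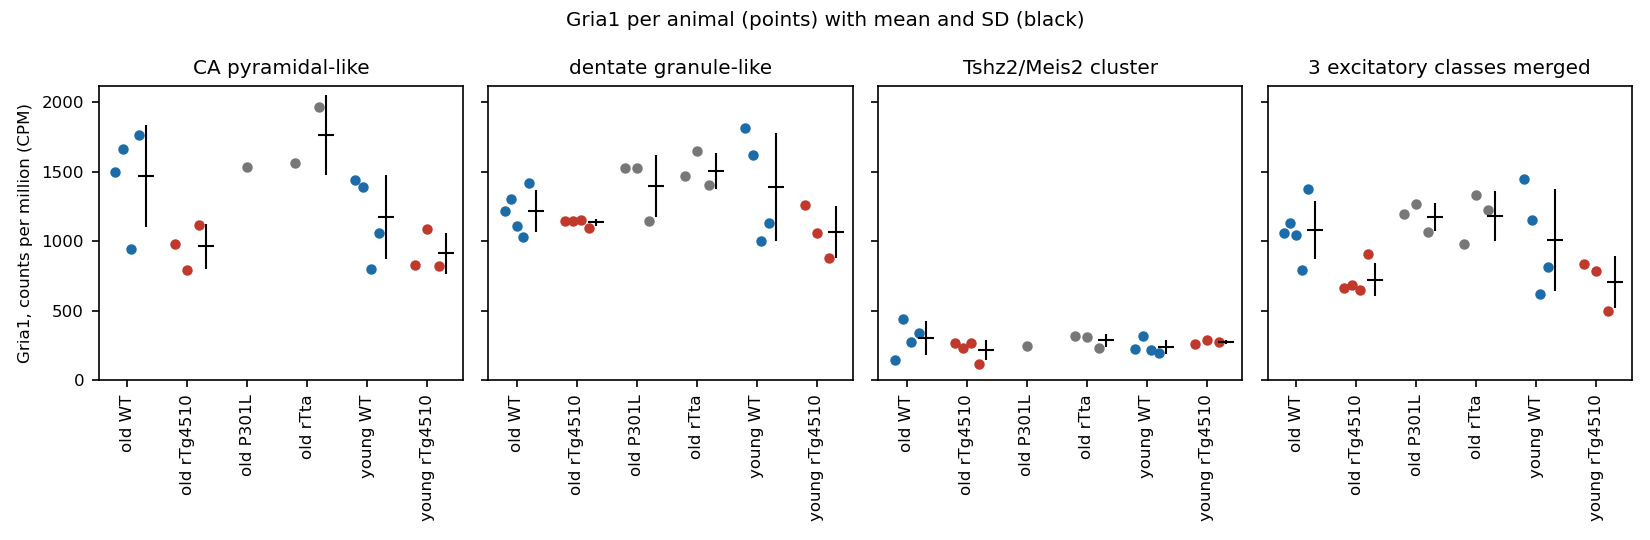
Gria1 per animal in CPM on a linear axis, in 3 excitatory classes and in these classes merged, by group, with the mean and SD in black where a group has more than 1 animal. The Tshz2/Meis2 cluster lies below the other classes in every group, and in the merged cells the old rTg4510 animals (646 to 906) lie below all P301L and rTta animals and overlap the old WT animals.

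Compared with old WT, the groups with 1 transgene gave no call either. For P301L animals, of 17 pairs of a gene and a class, 0 passed the threshold in edgeR and 0 in DESeq2, against 0.0376% of all gene and class pairs tested in edgeR; 3 had an unadjusted p under 0.05 in edgeR, 17.6% of the pairs against 8.3% over all genes. For rTta animals, of 38 pairs of a gene and a class, 0 passed the threshold in edgeR and 0 in DESeq2, against 0.302% of all gene and class pairs tested in edgeR; 4 had an unadjusted p under 0.05 in edgeR, 10.5% of the pairs against 8.53% over all genes. The smallest adjusted p was that of Gria4 in the Tshz2/Meis2 cluster, which was at 67.9, 70.5, 137 and 53.9 CPM in old WT and 151, 189 and 157 in rTta animals. All rTta animals were above all WT animals, and the log2 difference was 0.99 ± 0.34 (SE; 95% interval 0.31 to 1.68; edgeR adjusted p = 0.224). Grin2b in the same cluster was at 328, 247, 145 and 126 against 279, 477 and 272 CPM and overlapped. For rTg4510 against P301L animals, of 17 pairs of a gene and a class, 0 passed the threshold in edgeR and 0 in DESeq2, against 0.552% of all gene and class pairs tested in edgeR; 2 had an unadjusted p under 0.05 in edgeR, 11.8% of the pairs against 12.4% over all genes. For rTg4510 against rTta animals, of 38 pairs of a gene and a class, 0 passed the threshold in edgeR and 0 in DESeq2, against 0.385% of all gene and class pairs tested in edgeR; 6 had an unadjusted p under 0.05 in edgeR, 15.8% of the pairs against 8.59% over all genes. Between P301L and rTta animals, of 17 pairs of a gene and a class, 0 passed the threshold in edgeR and 0 in DESeq2, against 0.264% of all gene and class pairs tested in edgeR; 0 had an unadjusted p under 0.05 in edgeR, 0% of the pairs against 8.7% over all genes. P301L animals entered the tests only in dentate granule-like, astrocyte-like and oligodendrocyte precursor-like cells, since 1 of them had 20 or more cells of each other class. Without the barcodes shared by more than 1 animal, no pair of these comparisons passed either.

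The Gria2 share of the AMPA counts in the merged excitatory cells was 65.7%, 68.2%, 65.3%, 65.8% and 67.5% in old WT animals and 71.3%, 68.9%, 70.6% and 71.9% in old rTg4510 animals, so that all rTg4510 animals were above all WT animals. The means were 66.5% ± 1.30 (SD, n = 5) and 70.7% ± 1.29 (n = 4), a difference of 4.19 percentage points (exact two-sided permutation p = 0.0159, the smallest that 4 against 5 animals allow). Adjusted over the 16 share tests it was 0.254. The smallest p that the group sizes allow ran from 0.0159 to 0.0571 over these tests. Even with all 16 at their smallest p, none would pass the threshold once adjusted, so the adjusted values cannot decide whether shares differed. In young animals the share was 59.0%, 66.2%, 70.6% and 70.5% in WT and 68.2%, 66.4% and 67.0% in rTg4510 animals, which overlapped (exact two-sided permutation p = 0.971, adjusted p = 1). Within the classes, over animals with at least 10 cells, the old WT and rTg4510 animals lay at 61.8% to 67.5% and 68.1% to 71.0% in CA pyramidal-like neurons, without overlap. They lay at 64.4% to 69.5% and 67.7% to 72.5% in dentate granule-like neurons and at 66.9% to 75.3% and 71.2% to 81.6% in the Tshz2/Meis2 cluster, with overlap. In the Tshz2/Meis2 cluster the overlap came from 1 WT animal with 17 cells; over animals with at least 20 cells the shares were 66.9% to 70.0% in WT and 71.2% to 81.6% in rTg4510 animals, without overlap. Here the Tshz2/Meis2 cluster, larger in rTg4510 animals, also had the higher share in WT animals; the part of the mix in the merged difference was not tested. In the merged cells P301L animals had 58.7%, 58.0% and 62.6% and rTta animals 64.5%, 62.6% and 62.7%, below every old WT and rTg4510 animal. In dentate granule-like neurons they also lay below, at 55.2% to 63.8% and 61.5% to 63.1%. They overlapped old WT animals in CA pyramidal-like neurons (55.8% to 62.4% and 55.6% to 61.8%) and the Tshz2/Meis2 cluster (71.4% to 74.4% and 68.8% to 75.5%). In CA pyramidal-like neurons this overlap came from 1 WT animal at 61.8%, and the other old WT animals lay above, at 63.8% to 67.5%. Dentate granule-like neurons averaged 75.4% of excitatory cells in P301L and 57.4% in old WT animals, and the part of this was not tested. Genotype and table part cannot be told apart there. In interneuron-like cells the share was 52.2% ± 7.40 in the rTg4510 and 48.9% ± 10.01 in the WT animals of the old age (n = 4 each; exact two-sided permutation p = 0.657). The Grin2a share of Grin2a and Grin2b counts was 2.52% ± 0.410 in old rTg4510 and 1.95% ± 1.77 in old WT excitatory cells (exact two-sided permutation p = 0.587, adjusted p = 0.931), from 1 to 9 Grin2a counts an animal. Since the 3' capture of the 2 genes may differ, this share does not give the proportion of the subunits.

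**Figure D4:**
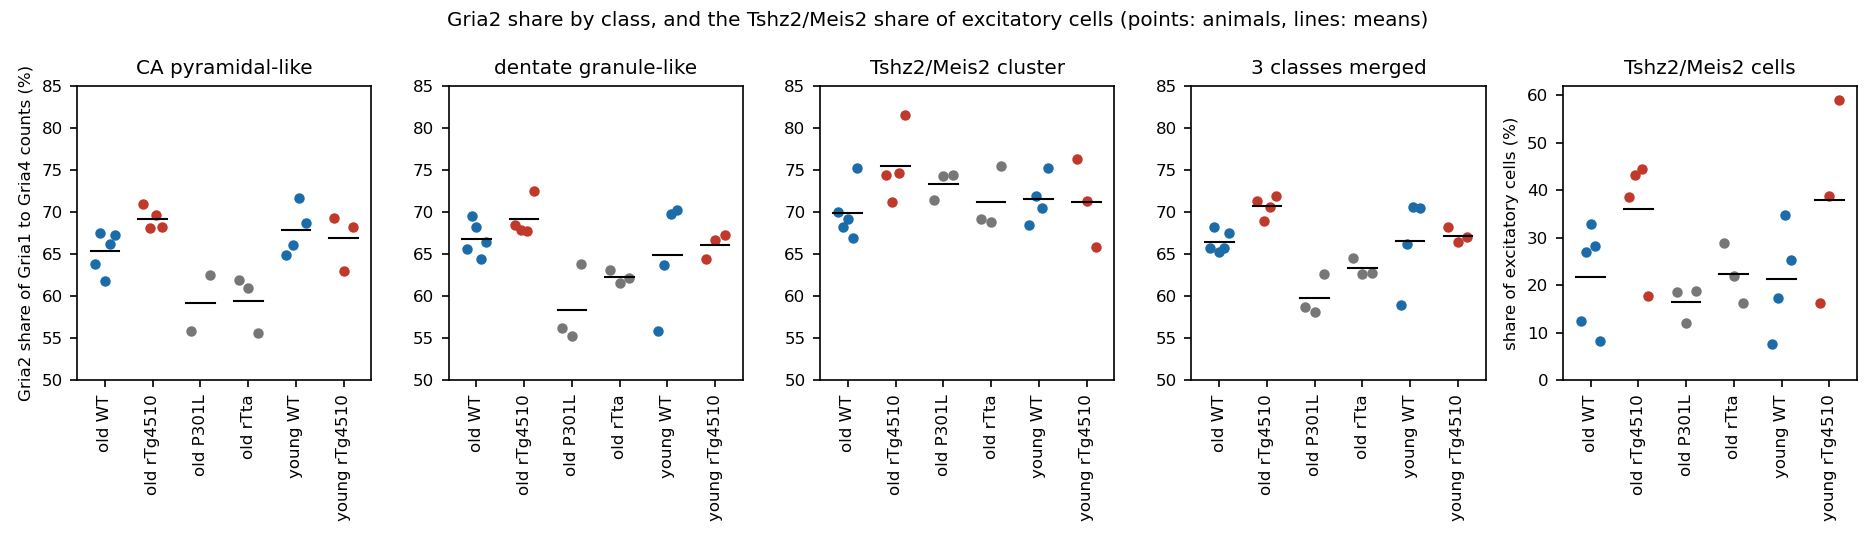
Gria2 share of the Gria1 to Gria4 counts per animal in 3 excitatory classes and merged, in percent on an axis from 50 to 85, animals with fewer than 20 cells included, and at the right the Tshz2/Meis2 share of excitatory cells in percent. Lines are group means; in the merged cells the old rTg4510 animals (68.9% to 71.9%) lie above the old WT animals (65.3% to 68.2%) and the P301L and rTta animals below both.

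Other genes of the glutamate synapse were taken from 6 lists of 71 genes (other NMDA and delta subunits, kainate subunits with Neto proteins, other metabotropic receptors, AMPA auxiliary subunits, postsynaptic scaffolds, and synaptic kinases, phosphatase and clustering factors), of which 63 were in the table. In old rTg4510 against old WT animals, 2 of 245 pairs of such a gene and a class passed, against 0.232% of all pairs tested in edgeR. Of the 245, 27 had an unadjusted p under 0.05 in edgeR, where 6.71% of all pairs were. The 2 called were in dentate granule-like neurons, where 0.97% of all genes passed, and DESeq2 called 3 pairs. Both called genes encode leucine-rich repeat proteins of excitatory synapses that bind presynaptic partners, and they moved in opposite directions. Lrrtm2 rose, from 96.5, 117, 56.6, 65.7 and 143 CPM in old WT to 257, 259, 141 and 199 in old rTg4510 animals, a log2 difference of 1.10 ± 0.27 (SE; edgeR adjusted p = 0.022). The highest WT animal exceeded the lowest rTg4510 animal. Lrrtm4 fell, from 73.3, 103, 75.4, 46.9 and 103 to 22.4, 45.0, 30.9 and 30.9 CPM, all rTg4510 animals being below all WT animals, with -1.25 ± 0.32 (SE; edgeR adjusted p = 0.0343). Leaving out some single animals ended both calls, while the log2 differences stayed near those with all animals. Lrrtm2 missed the threshold without old WT replicate 1, 3 or 4 or old rTg4510 replicate 1 or 2, at 0.99 to 1.07 (edgeR adjusted p up to 0.143). Lrrtm4 missed it without old WT replicate 1, 2 or 5 or old rTg4510 replicate 1, 3 or 4, at -1.09 to -1.32 (edgeR adjusted p up to 0.173). Lrrtm4 also missed it with no filter on low counts (edgeR adjusted p = 0.0586) and without the dentate cluster of lowest depth (edgeR adjusted p = 0.0878). The dentate class joined 3 clusters whose shares differed between groups. The shares are of all clustered neuron cells, which include unnamed clusters that entered no test. The largest unnamed cluster (2097 cells) made up 29.7% of them in old WT, 12.7% in old rTg4510, 31.5% in old P301L and 33.0% in old rTta animals. The cluster led by Stxbp6 and Calb1 (median 2192 counts a cell) made up 19.1% of neuron cells in old WT, 15.9% in old rTg4510 and 12.6% in old P301L animals, and that of lowest depth (median 838 counts) 11.3%, 12.4% and 21.6%. The smallest dentate cluster held 135 cells and 6.97% of neuron cells in rTta animals. The part of this in the dentate results was not tested beyond the values without a cluster.

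In young rTg4510 against young WT animals 0 of 245 such pairs passed, with 22 at an unadjusted p under 0.05 in edgeR, where 5.59% of all pairs were, and 0 called by DESeq2. In the merged excitatory neurons the smallest p values were those of Lrrtm4 at -1.31 ± 0.33 (SE; edgeR adjusted p = 0.129) and of the kainate receptor subunit Grik2 at -0.74 ± 0.23 (SE; edgeR adjusted p = 0.35). In old rTg4510 against old P301L animals 5 of 95 pairs passed, against 0.552% of all pairs tested in edgeR. Of the 95, 22 had an unadjusted p under 0.05 in edgeR, where 12.4% of all pairs were. The 5 called were all in dentate granule-like neurons, where 1.24% of all genes passed, and DESeq2 called 4. Grm2, a presynaptic metabotropic receptor, fell by 1.64 ± 0.33 on the log2 scale (SE; edgeR adjusted p = 0.00626), with 107, 262 and 119.6 CPM in P301L and 95.2, 47.8, 44.2 and 44.2 in rTg4510 animals. The calcineurin subunit Ppp3r1 fell, with -0.90 ± 0.22 (SE; edgeR adjusted p = 0.0229), and so did Cacng2, the auxiliary subunit stargazin, with -1.32 ± 0.33 (SE; edgeR adjusted p = 0.0276). Homer2, a scaffold that binds group I metabotropic receptors, rose, with 1.71 ± 0.41 (SE; edgeR adjusted p = 0.0242). The fifth was the scaffold Dlg4, lower by 1.10 ± 0.30 (SE; edgeR adjusted p = 0.0493) and named beyond the rule for its count. Genotype and table part cannot be told apart in these differences. Dlg4 was at 199 to 277 CPM in P301L and 97.2 to 134 in rTg4510 animals, within the 84.4 to 150 of old WT. For Grm2 (46.9 to 103 in old WT) and Cacng2 (37.5 to 146 against 39.8 to 72.8) old WT and rTg4510 animals also overlapped. Ppp3r1 in rTg4510 animals (420 to 590) lay below old WT (679 to 1009), and Homer2 (77.4 to 119) above (28.1 to 75.4). Old P301L replicate 2 ended all 5 calls: without it the 5 adjusted p values ran from 0.0958 to 0.299. Other animals also ended calls: Ppp3r1 missed the threshold without old rTg4510 replicate 1, 2 or 3 or old P301L replicate 2, Cacng2 without old rTg4510 replicate 2, 3 or 4 or old P301L replicate 1 or 2, Homer2 without old rTg4510 replicate 2 or 3 or old P301L replicate 1 or 2 and Dlg4 without old rTg4510 replicate 1, 2, 3 or 4 or old P301L replicate 1 or 2. Without the dentate cluster of lowest depth Cacng2 missed it too (edgeR adjusted p = 0.0752), and the other 4 did not. In the remaining comparisons no pair of these lists passed in the 6 classes in edgeR. There, 13 to 26 of 245 pairs, or 12 to 16 of 95 where P301L animals took part, had an unadjusted p under 0.05, and DESeq2 called 0. Over all genes 4.14% to 8.59% of pairs were under it in the former comparisons and 8.3% to 8.7% in the latter. In merged excitatory neurons the smallest p values between old and young WT animals were those of Dlg1 (-0.54 ± 0.17) and Cacng2 (0.51 ± 0.20), as log2 differences with their SE. Between old and young rTg4510 animals they were those of Lrrtm2 (0.56 ± 0.23) and Shisa9 (0.52 ± 0.23), and for the interaction those of Cnih2 (-0.91 ± 0.30) and Dlg1 (0.61 ± 0.26). Against old WT they were those of Abhd6 (-0.79 ± 0.23) and Grm2 (1.23 ± 0.36) for P301L and of Grin3a (0.76 ± 0.31) and Shank3 (-0.94 ± 0.40) for rTta animals. For rTg4510 against rTta they were those of Lrrtm4 (-1.06 ± 0.32) and Arc (-1.87 ± 0.61), and for P301L against rTta those of Frrs1l (-0.79 ± 0.25) and Grik4 (1.001 ± 0.35).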

How the data were processed

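Drop-seq libraries of hippocampus from 22 animals were deposited by the authors as 1 table of whole-number counts of 13685 genes in 30500 barcodes. The submitters' processing notes name bcl2fastq 2.18.0.12, STAR 2.2 and mm10; the counter, annotation and filters are not given in the sources used here. Barcodes with at least 300 counts were kept. Cells were clustered (scanpy 1.11.5, Leiden, 40 principal components, 15 neighbours, resolution 1; neurons again with 30 components and resolution 0.8) with the receptor genes, the other listed synapse genes, Mapt and Prnp left out, and named from at least 3 markers at 2 times the level elsewhere. No doublet caller was run. Of the 7287 cells in the neuron classes, 1373 had more glial than neuron marker counts. These were kept in the main results and left out in an alternative.

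Counts were summed per animal and class. Animals with at least 20 cells entered edgeR 4.0.16 (quasi-likelihood test, TMM, low-count filter, 6 groups in 1 fit per class, Benjamini-Hochberg over all genes tested in the class, threshold 0.05); DESeq2 1.42.0 was an alternative. Shares were compared by exact permutation over animals. All tests were two-sided. Each GEO sample was treated as 1 animal. The scripts were tested on simulated data for old rTg4510 against old WT. Of genes given a log2 change of 1, 22.6% were called in interneuron-like, 22.9% in CA pyramidal-like and 45.8% in dentate granule-like neurons. The other 3 classes lay between these, at 26% to 42.1%. Of genes given a change of 2, 78.5% to 96.8% were called. The 8 genes, the classes and the lists were chosen with earlier results of these data known. Named synapse genes were those past the threshold, at most 4 a comparison, or otherwise the 2 of smallest p in merged excitatory neurons. Some of the genes most like a receptor gene across classes are not reported here.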

Additional observations from a re-analysis of the deposited data

Results flagged for a closer look

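Of 127 groups of 4 or 5 animals, 9 held an animal far from the others of its group, where chance alone would give about 1 in 20. In dentate granule-like neurons of old rTg4510 replicate 4, Gria1 was at 1096 CPM, below the 1147 to 1153 CPM of the other animals. In the Tshz2/Meis2 cluster, Gria4 was at 159.5 CPM in young WT replicate 1 against 102 to 108 CPM in the others. Grin1 there was at 204 CPM in old rTg4510 replicate 3 against 249 to 255, and Grin2b at 285 CPM in young WT replicate 2 against 153 to 168. In interneuron-like cells, Grm5 was at 657 CPM in old rTg4510 replicate 3 against 459.9 to 492.5 in the others. Grin2a was at 5.77 CPM in interneuron-like cells of old rTg4510 replicate 2, and at 4.12 CPM in astrocyte-like cells of old WT replicate 1 and 4.88 CPM in those of young WT replicate 1, with 0 counts in the other animals of each group. Each of these 3 values is 1 count, and any single count against zeros stands apart in this way. In oligodendrocyte precursor-like cells, Gria1 was at 92.1 CPM in young WT replicate 3 against 197 to 213 in the others. No receptor gene passed the test of an age by genotype interaction.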

How the results depend on the processing

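In all 33 alternatives, including each of the 22 animals left out, the count of receptor gene and class pairs past the threshold stayed at 0 in each of the 10 comparisons over the 6 classes; the smallest adjusted p in any was 0.069. With the merged excitatory cells counted too, the 33 pairs with an unadjusted p under 0.05 kept their sign throughout. The calls of other synapse genes that ended are given in the report. Differences of subunit shares, in percentage points, changed sign in some alternatives. Without glial-heavy cells the Gria2 share in interneuron-like cells of old against young rTg4510 animals went from 2.26 to -1.10. With 1 animal left out at a time, the Gria2 share in merged excitatory cells ran from -2.61 to 1.26 (with all animals -0.0856) for old against young WT and from -1.92 to 1.95 (with all animals 0.612) for young rTg4510 against young WT. In interneuron-like cells it ran from -0.463 to 7.32 (with all animals 3.26) for old rTg4510 against old WT and from -0.546 to 7.51 (with all animals 3.51) for old against young WT, and the Grin2a share from -1.46 to 1.46 (with all animals -0.190) for the latter. For old rTg4510 against old WT the Gria2 share in excitatory cells ran from 3.78 to 4.77 (with all animals 4.19). The cause of these changes was not tested. The settings without shared barcodes, without either of 2 dentate clusters and the Grin2a fit over 16 animals were chosen after seeing the data. No paired analysis was possible because the labels carry animal numbers only, which pair no animals across groups. With the block of these numbers as a separate term at each age, 0 receptor pairs passed in the 5 comparisons of WT and rTg4510 animals (smallest edgeR adjusted p 0.287 over the 6 classes). Few cells of CA and interneuron classes and the 166 counts of Grin2a limit what could be detected.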
